A study of Mus musculus with 12 samples.

Results

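The genes described here are 41 genes of the cell cycle and of DNA replication, covering the G1/S transition, replication and G2/M. They were chosen by name, and every array probe annotated to one of their symbols was read in all 4 groups of the study. Of the 41 genes, 39 had a probe, and these 39 genes had 82 of the 45281 probes on the array. Ccnb1 and Mki67 were not in the annotation and were not analysed here. Probes counted as detected at a deposited detection p under 0.01, and 66 of the 82 were detected on at least 3 of 12 arrays. Ccnb2 (a mitotic cyclin), Bub1 (a spindle checkpoint kinase) and Kif20a (a kinesin of cytokinesis) were detected on no array. That left 36 of the 41 genes among the 8898 genes tested, and 34 of the 36 were detected on all 12 arrays. The others were Gmnn, detected on 11 arrays, and Ttk, detected on 4.

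A dividing cell passes from G1 into S phase when cyclin E with Cdk2 releases E2F factors, which switch on the genes of DNA synthesis. Replication origins are licensed by loading the ring of Mcm2 to Mcm7 onto DNA, and Cdc45 turns that ring into a working helicase. Mitosis is driven by cyclins A and B with Cdk1, ordered by the Polo and Aurora kinases, held by the spindle checkpoint, and ended by the anaphase-promoting complex with its activator Cdc20. Type I interferons are known to slow the cycle of many cell types.

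The study asked what part ULK1 plays in type I interferon signalling. RNA was taken from mouse embryonic fibroblasts of strain C57BL/6J, either wild type (Ulk1/2+/+, WT) or double knockout (Ulk1/2-/-, DKO), which lack the autophagy kinases Ulk1 and Ulk2. Each genotype was untreated or had received mouse interferon beta (IFNβ) at 2500 IU/ml for 6 h, with 3 Illumina bead arrays in each of the 4 groups. The labels do not say how many embryos, clones or cultures lay behind the arrays, so p-values measure only the spread between these samples, and the number of arrays limits the precision.

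Each array detected 30.3% to 33.7% of its probes, and replicate arrays correlated at 0.988 to 0.996 across the tested genes. All WT arrays (6 of 6) detected every probe of Ulk1 and Ulk2, and no DKO array (0 of 6) did. Xist, the RNA of the inactive X chromosome, was detected on 0 of 6 WT and 6 of 6 DKO arrays, so genotype cannot be told apart from the sex and origin of the cultures. Of 14 fibroblast markers 11 were detected on all arrays, Pdgfra and Dcn on some and Lum on none. The leukocyte markers Ptprc, Adgre1, Itgam, Csf1r and Lyz2, the endothelial Pecam1, Cdh5, Tie1 and Tek, and the epithelial Epcam and Cldn3 were also detected on none. The leukocyte marker Cd3e was detected on all arrays, and the epithelial Krt8, Krt18, Cdh1 and Cldn4 and the endothelial Kdr on some. The summed intensity of 6 leukocyte markers was 146 to 156 on untreated and 143 to 159 on treated WT arrays, and 194 to 250 and 201 to 220 on DKO arrays, where the Cd3e probe differed. That of 14 fibroblast markers was 14100 to 16700 and 15200 to 15600 in WT, and 13500 to 16100 and 14300 to 15000 in DKO cells. That of 6 epithelial markers was 119 to 126 and 123 to 134 in WT, and 149 to 160 and 138 to 153 in DKO cells, and that of 5 endothelial markers 103 to 123 over all arrays. Median intensity fell into 2 sets of 6 arrays, 86.5 to 87.9 and 97.5 to 99.7. WT groups had 2 arrays each in the low set and DKO groups 1. Counts within each set are therefore given beside the pooled ones, with values for some members only.

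Promoters of the members carry short motifs known from cell cycle genes, and 5 are shown here because their genes carry the results. Mcm6 and Mcm5 are subunits of 1 ring, and in WT cells Mcm6 rose and Mcm5 fell with IFNβ. On the probes used, Cdc25a was higher and Bub1b lower in DKO cells with and without IFNβ, and Cdc20 was lower in 3 of the 5 comparisons. The second probes of Cdc25a and Bub1b were not called, and that of Bub1b had higher means in DKO cells. Each line gives the 160 bases before the gene's start in RefSeq (GRCm38.p6), 5′ to 3′ on the gene's strand. Capitals mark E2F-like motifs (TTTCGCGC, TTTGGCGC, TTTCCCGC or TTTGCCGC), CHR-like motifs (TTTGAA or TTCGAA) and the CCAAT box (CCAAT), on either strand. The windows are chr1:128359706-128359865 (minus strand) for Mcm6, chr8:75109349-75109508 (plus strand) for Mcm5, chr9:109875419-109875578 (plus strand) for Cdc25a, chr4:118437344-118437503 (minus strand) for Cdc20 and chr2:118598051-118598210 (plus strand) for Bub1b.
Mcm6: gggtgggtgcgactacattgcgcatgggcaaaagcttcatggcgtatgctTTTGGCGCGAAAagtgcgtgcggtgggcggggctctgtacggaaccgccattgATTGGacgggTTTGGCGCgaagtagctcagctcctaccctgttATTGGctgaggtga
Mcm5: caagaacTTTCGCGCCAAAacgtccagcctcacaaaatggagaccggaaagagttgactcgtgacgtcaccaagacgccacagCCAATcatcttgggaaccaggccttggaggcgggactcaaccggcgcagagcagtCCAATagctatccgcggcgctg
Cdc25a: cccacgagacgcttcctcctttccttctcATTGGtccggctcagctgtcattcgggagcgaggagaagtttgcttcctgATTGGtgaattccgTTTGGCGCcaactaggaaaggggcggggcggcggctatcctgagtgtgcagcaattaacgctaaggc
Cdc20: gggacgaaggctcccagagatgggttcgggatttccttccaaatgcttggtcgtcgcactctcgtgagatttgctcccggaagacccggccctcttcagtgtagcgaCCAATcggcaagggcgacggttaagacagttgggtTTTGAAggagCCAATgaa
Bub1b: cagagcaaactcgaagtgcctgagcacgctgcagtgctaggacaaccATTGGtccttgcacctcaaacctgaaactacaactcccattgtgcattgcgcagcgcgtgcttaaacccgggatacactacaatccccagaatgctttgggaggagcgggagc
Mcm6 had 3 E2F-like matches, of which those 110 and 106 bases upstream overlap, and Mcm5 had 2 overlapping ones 153 and 149 bases upstream. Cdc25a had 1, 67 bases upstream. Cdc20 had none, but a CHR-like match 18 bases upstream between CCAAT boxes 53 and 8 bases upstream. Bub1b had a CCAAT box 113 bases upstream, with CHR-like letters only outside the printed stretch.

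Over the wider window of 250 bases before to 50 after the start, 33 members had a promoter in the RefSeq table (Ccne2, Gmnn, Mcm4, Ccna2, Cdc25c, Aurkb, Kif20a and Tpx2 were not matched). E2F-like letters stood in 9 of the 33, 27.3%, against 2.32% of all 27025 promoters in the table and 4.39% of the 7273 promoters of tested genes. They were in 6 of 8 promoters of the licensing and helicase genes and in 0 of 8 of the chromosome and spindle genes. CHR-like letters stood in 48.5% of the members' promoters, against 19.4% of all and 13.6% of tested genes. They were in 7 of 8 chromosome and spindle promoters, in 3 of 8 of the licensing and helicase genes and in 0 of 5 of the G1/S genes. The CCAAT box stood in 75.8%, against 37.9% and 39.4%. Letters like an interferon response element (GAAANGAAA or GAAANNGAAA, a search chosen after seeing the data) were in the promoters of Bub1b and Mcm3, 6.06% of the 33 against 6.32% of all. A match is a description of letters and not of a bound site.

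Averaged over the 36 genes, the level relative to each gene's mean over 12 arrays was 0.11 to 0.13 on the untreated WT arrays and -0.04 to 0 on the treated ones, on the log2 scale. It was 0 to 0.02 on the untreated DKO arrays and -0.12 to -0.08 on the treated ones. Untreated WT cells thus had the highest mean, treated DKO cells the lowest, and the other 2 groups lay between them. The median change over all tested genes was negative as well. It was -0.08 and -0.07 with IFNβ in WT and DKO cells, and -0.03 and -0.02 between untreated and treated genotypes. Of all genes, 62.9% and 62.8% were negative with IFNβ, and 53.1% and 52.7% between genotypes. In bulk RNA, fewer cycling cells and less of these RNAs per cell cannot be told apart.

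**Figure D1:**
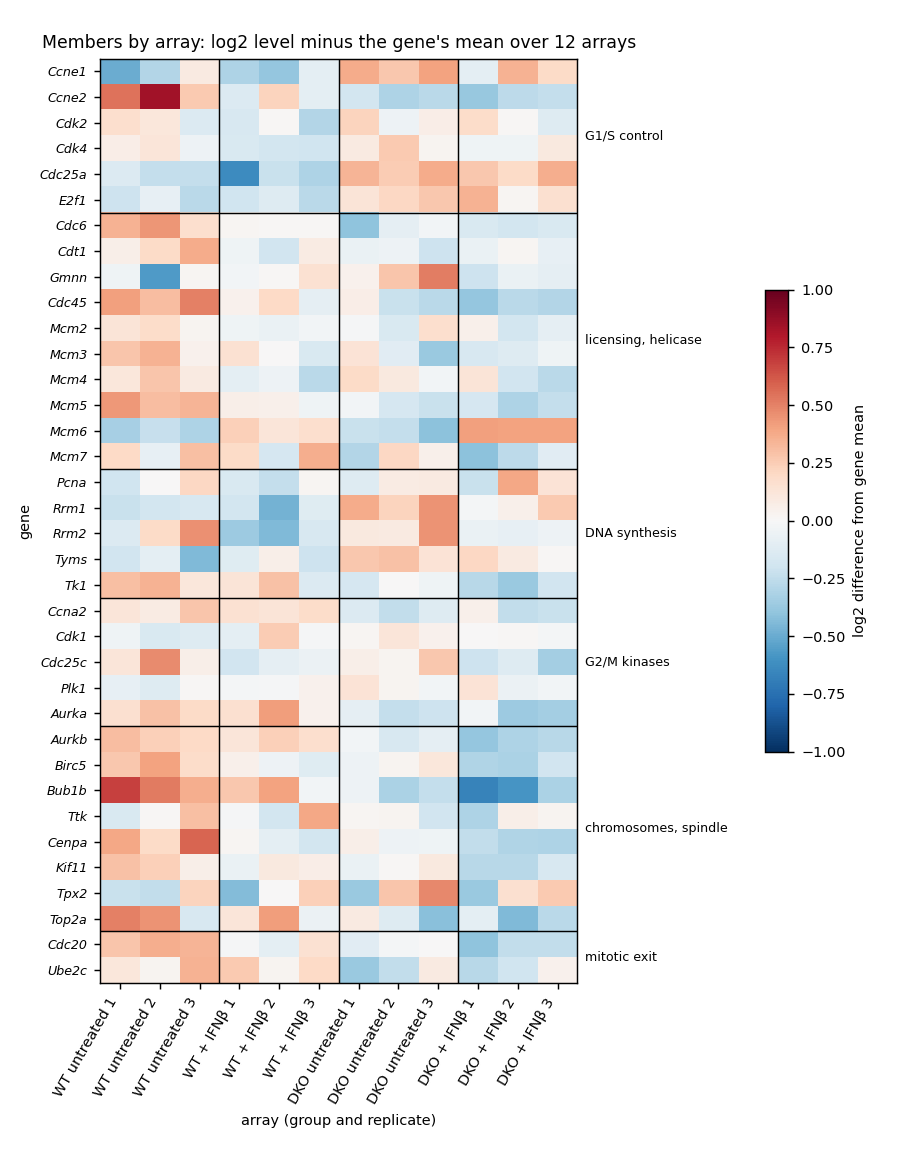
Each row is 1 of the 36 tested genes, ordered by role, and each column 1 of the 12 arrays; the colour is the log2 level minus that gene's mean over all arrays. Bub1b and Cdc45 are red on the untreated WT arrays and blue on the treated DKO arrays, Cdc25a, E2f1 and Rrm1 run the other way between genotypes, and Mcm6 is red on the treated arrays of both genotypes.

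In WT cells IFNβ changed 8 of the 36 genes, 22.2%, against 18.7% of all 8898 genes, in the limma model at an adjusted p under 0.05. Mcm6 alone rose (8.08% of all genes did), and Ccne2, Rrm2, Cenpa, Cdc45, Mcm5, Birc5 and Cdc20 fell (10.7% of all genes did). All 8 changes were under 2-fold, from 0.31 to 0.55 in size on the log2 scale. The median change of the 36 was -0.16 against -0.08 for all tested genes, and 29 of 36 (80.6%) were negative against 62.9% of all genes. By role, those that fell were, of the tested members, 1 of 6 G1/S genes, 2 of 10 licensing and helicase genes, 1 of 5 of DNA synthesis, 0 of 5 of G2/M, 2 of 8 of chromosomes and spindle and 1 of 2 of mitotic exit.

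The count of 8 was not steady. It was 3 with cyclic loess, with median scaling or with only the 2 WT groups in the fit, in each case 1 higher and 2 lower. By cyclic loess and by median scaling the 3 were Mcm6, Ccne2 and Cenpa. It was 2 within either intensity set. With the replicate block it was 12, all 8 among them. Leaving out 1 array gave 4 without untreated WT array 1, 3 without untreated WT array 2, and 4, 5 and 4 without treated WT array 1, 2 and 3. Over all genes the split was 719 higher and 949 lower, but 811 and 587 with cyclic loess and 639 and 644 with median scaling. For the other settings the share of all genes called is not given, so those counts are not read as a result about the members.

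In DKO cells IFNβ changed 1 of the 36 genes, Mcm6, which rose, 2.78% against 11.4% of all genes (6.25% rose, 5.16% fell). In a fit of every kept probe, 4 members not called here had another probe that was called. The median change was -0.12 against -0.07 for all genes, and 30 of 36 (83.3%) were negative against 62.8% of all genes. The labels state no pairing, but the replicate numbers were taken to pair untreated and treated arrays within a genotype, as described below. With that assumed pairing as a block the count was 4 (Mcm6 higher, Gmnn, Cdc25c and Birc5 lower). It was 2 without untreated WT array 2, 0 within the low intensity set, which has 1 DKO array per group, and 2 within the high set. The all-gene split of 556 higher and 459 lower became 597 and 303 with cyclic loess and 427 and 622 with median scaling.

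The 8 members called in WT cells had the same sign in DKO cells, and 7 of the 8 were smaller there. As the 8 were selected by their WT change, smaller DKO values alone do not show a different response. The test of the difference between the responses, the interaction, passed for 0 of 36 members, against 1.05% of all genes. At an unadjusted p under 0.05 it counted 2 members, 5.56%, against 9.18% of all genes. These were Ccne2, with a DKO response 0.51 above the WT response (SE 0.20, 95% CI 0.08 to 0.94, adjusted p = 0.41), and Gmnn, 0.64 below it (SE 0.22, 95% CI -1.11 to -0.17, adjusted p = 0.30). The median difference over the members was 0.03, with a median SE of 0.16.

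**Figure D2:**
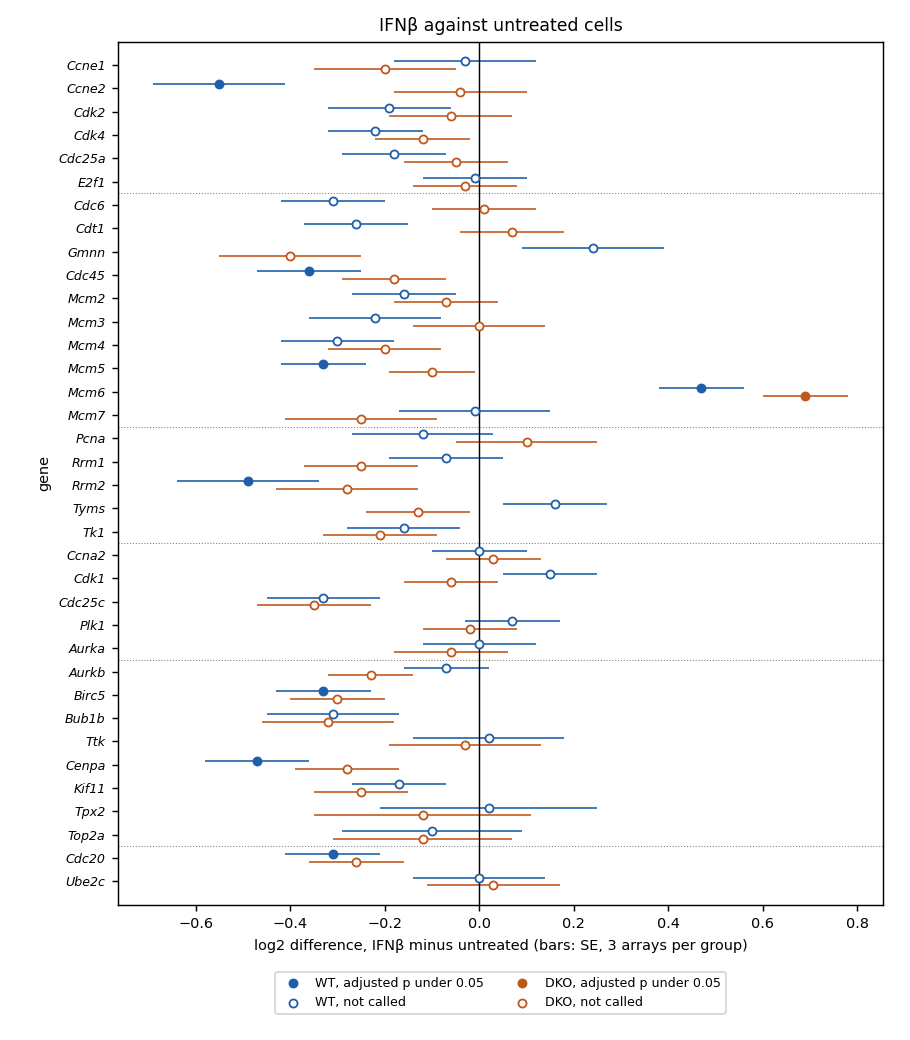
Points are the log2 difference between IFNβ-treated and untreated arrays for each of the 36 genes, in WT (blue) and DKO cells (orange), with SE bars from the limma model; filled points passed an adjusted p of 0.05. Most points lie below 0 in both genotypes, and Mcm6 is the only filled point to the right, at 0.47 in WT and 0.69 in DKO cells.

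Without IFNβ, 17 of the 36 genes differed between genotypes, 47.2% against 33.9% of all genes. In DKO cells 6 were higher (15.9% of all genes were) and 11 were lower (18% of all genes were). After IFNβ 11 differed, 30.6% against 31.8% of all genes, with 3 higher (15.3% of all genes) and 8 lower (16.5%). The median difference of the members was -0.13 in both, against -0.03 and -0.02 for all genes, and no member passed 2-fold.

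The 2 genotype comparisons have no array in common, but they are not independent. Both come from the same model, and untreated and treated arrays of the same number within a genotype deviated together (r = 0.34 to 0.64). Of the called members 10 passed in both with the same sign, 58.8% of the 17 and 90.9% of the 11, and 0 passed with opposite signs. Over all genes the shares were 68.6% and 73.0%. The 10 were Cdc25a, E2f1 and Rrm1, higher in DKO cells, and Cdc45, Mcm5, Ccna2, Aurka, Aurkb, Bub1b and Cdc20, lower.

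Within the low and high intensity sets 5 and 12 members differed untreated and 3 and 3 after IFNβ. The treated count was 6 with only the 2 treated groups in the fit and 18 with the set as a block. It was 7 without treated WT array 1 or treated DKO array 1, and 6 without treated WT array 2 or treated DKO array 2 or 3. With median scaling it was 1 higher and 8 lower, where the all-gene split of 1362 higher and 1469 lower became 958 and 1608. For the other fits here the share of all genes called is not given, so those counts are not read as a result about the members. Fibroblast markers moved with genotype too: of 13 tested, 2 were higher and 5 lower in DKO cells untreated, and 2 higher and 6 lower after IFNβ. Pdgfra and Dcn among them were detected on 6 of 6 WT and 0 of 6 DKO arrays. Their part in the members' differences, and that of Cd3e and Krt18, was not tested.

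**Figure D3:**
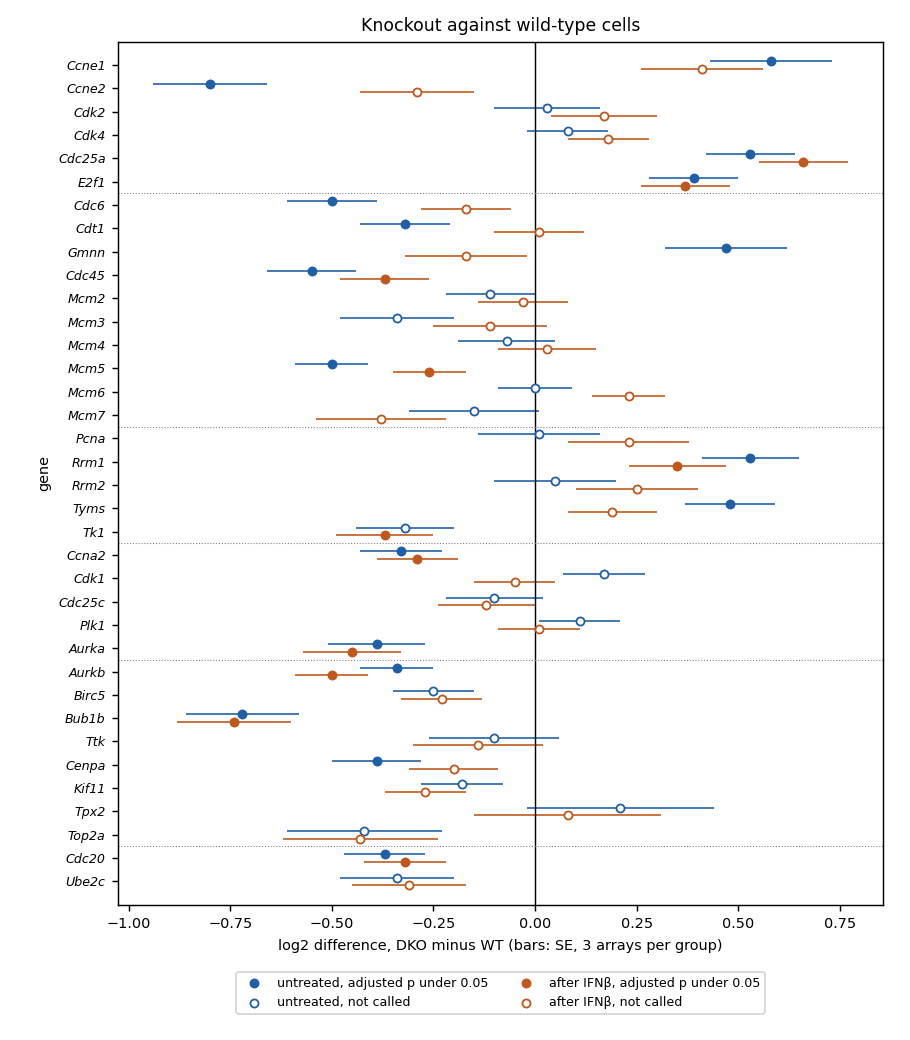
Points are the log2 difference between DKO and WT arrays for each of the 36 genes, untreated (blue) and after IFNβ (orange), with SE bars; filled points passed an adjusted p of 0.05. Cdc25a, E2f1 and Rrm1 are filled on the right in both conditions, and Bub1b, Aurkb, Aurka and Cdc45 on the left.

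Among the 6 G1/S genes, 1 fell with IFNβ in WT cells, and 3 were higher and 1 lower in untreated DKO cells. Ccne1 and Ccne2 encode the E cyclins that drive S phase entry with Cdk2. Ccne2 read 6.91, 7.21 and 6.63 (log2 intensity) on untreated WT arrays, 6.23, 6.59 and 6.27 on treated WT arrays, 6.19, 6.06 and 6.10 on untreated DKO arrays and 5.99, 6.10 and 6.13 on treated DKO arrays. The untreated WT arrays were the highest, with no overlap with any other group. IFNβ lowered it 1.47-fold in WT cells (log2 change -0.55, SE 0.14, adjusted p = 0.014), and in DKO cells the change was -0.04 (SE 0.14, adjusted p = 0.89). The WT call was lost without untreated WT array 2 (adjusted p = 0.068), treated WT array 1 (0.059) or treated WT array 3 (just over the threshold). Untreated DKO cells had 1.74-fold less than WT cells (-0.80, SE 0.14, adjusted p = 6e-04), and this call held under all 25 alternatives run. After IFNβ the difference was -0.29 (SE 0.14, adjusted p = 0.14).

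Ccne1 read 5.96, 6.16 and 6.55 on untreated WT arrays and 6.83, 6.72 and 6.86 on untreated DKO arrays. The DKO arrays lay above all WT arrays, and the gene was 1.49-fold higher (0.58, SE 0.15, adjusted p = 0.0097), though by 0.24 within the high intensity set (adjusted p = 0.23) against 0.77 within the low set (adjusted p = 0.0092). After IFNβ it read 6.14, 6.07 and 6.36 in WT and 6.36, 6.80 and 6.64 in DKO cells, and the groups touched at 6.36 (0.41, SE 0.15, adjusted p = 0.055). So the 2 E cyclins differed between untreated genotypes in opposite directions.

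Cdc25a, the phosphatase that activates Cdk2, was higher in DKO cells in both conditions. Its probe read 7.53, 7.43 and 7.43 on untreated and 7.03, 7.45 and 7.36 on treated WT arrays, against 8.01, 7.92 and 8.04 and 7.93, 7.86 and 8.03 on DKO arrays. All 6 DKO arrays lay above all 6 WT arrays. The difference was 0.53 untreated (SE 0.11, adjusted p = 0.0026) and 0.66 after IFNβ (1.58-fold, SE 0.11, adjusted p = 0.00047). A dimmer Cdc25a probe, detected on 5 arrays, gave -0.02 (SE 0.15) and 0.27 (SE 0.15), neither called.

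E2f1, the transcription factor at the head of the S phase program, read 9.65, 9.77 and 9.59 untreated and 9.66, 9.73 and 9.59 treated in WT cells. In DKO cells it read 9.99, 10.07 and 10.13 untreated and 10.21, 9.87 and 10.02 treated, above every WT array. It was 0.39 higher untreated (SE 0.11, adjusted p = 0.011) and 0.37 after IFNβ (SE 0.11, adjusted p = 0.015), and the second call was lost without treated WT array 3 (adjusted p = 0.052) or treated DKO array 1 (adjusted p = 0.066). Its IFNβ changes were -0.01 and -0.03 (SE 0.11 each), neither called. Cdk2 and Cdk4, the kinases of G1 and S phase entry, passed in no comparison on their brightest probes, with differences between -0.22 and 0.18. A second Cdk2 probe read 8.39, 8.47 and 8.64 on treated WT arrays and 8.91, 8.97 and 9.17 on treated DKO arrays, without overlap. Its untreated means were 8.69 and 8.97. Dimmer Cdk2 probes overlapped after IFNβ, with WT and DKO means of 7.18 and 7.28, and of 6.41 and 6.69. With the intensity set as a block Cdk2 was called 0.25 higher after IFNβ (adjusted p = 0.039).

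Among the 10 licensing and helicase genes, Mcm6, 1 of 6 subunits of the MCM ring, had the smallest adjusted p of all members for IFNβ in both genotypes. Mcm6 read 9.20, 9.30 and 9.21 on untreated and 9.77, 9.65 and 9.69 on treated WT arrays, and 9.31, 9.29 and 9.12 on untreated and 9.94, 9.93 and 9.92 on treated DKO arrays. All 6 treated arrays lay above all 6 untreated arrays. The rise was 1.38-fold in WT (0.47, SE 0.09, adjusted p = 0.0025) and 1.62-fold in DKO cells (0.69, SE 0.09, adjusted p = 0.00013). Within the low and high intensity sets it was 0.46 (adjusted p just under the threshold) and 0.48 (adjusted p = 0.095) in WT cells, and 0.63 (adjusted p = 0.13) and 0.72 (adjusted p = 0.0039) in DKO cells. The rise in DKO cells exceeded that in WT cells by 0.22 (SE 0.13, 95% CI -0.05 to 0.50, adjusted p = 0.68), which did not pass.

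None of the other subunits was called higher on the probe used for its gene. Mcm5 read 11.87, 11.74 and 11.78 on untreated and 11.50, 11.49 and 11.40 on treated WT arrays, and 11.41, 11.26 and 11.21 and 11.26, 11.13 and 11.20 on the DKO arrays. In WT cells the treated arrays lay below all untreated arrays, and Mcm5 fell by 0.33 (1.26-fold, SE 0.09, adjusted p = 0.024), a call lost without untreated WT array 1 (adjusted p = 0.081) or treated WT array 3 (adjusted p = 0.083). In DKO cells the change was -0.10 (SE 0.09, adjusted p = 0.60). Mcm2, Mcm3, Mcm4 and Mcm7 gave WT changes of -0.16, -0.22, -0.30 and -0.01, none called, and DKO changes of -0.07, 0.00, -0.20 and -0.25, none called. Mcm4 is the nearest of them to the threshold, with an adjusted p of 0.11 in WT cells and 3 treated arrays below all untreated ones. It passed with the replicate block (adjusted p = 0.021). Its dimmer probes did not show this fall. Probe ILMN_2752009 went the other way, with 5.62, 5.53 and 5.61 on untreated and 5.84, 5.73 and 6.00 on treated WT arrays. Probe ILMN_2752010 had WT means of 6.01 untreated and 5.95 treated.

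**Figure D4:**
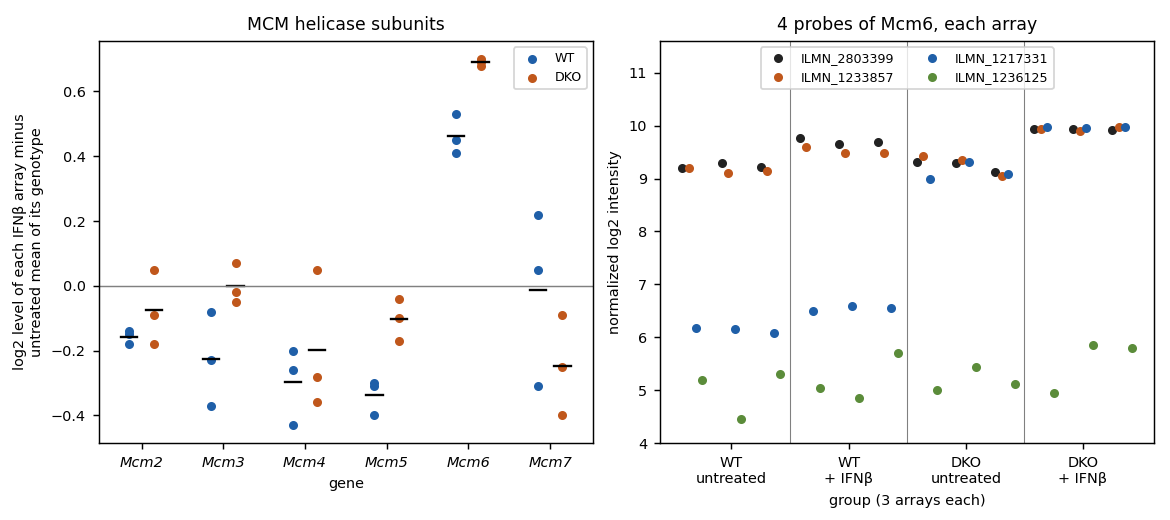
Left, points are the log2 level of each IFNβ-treated array minus the untreated mean of its genotype for 6 MCM subunits, with black bars for the means; Mcm6 lies above 0 on all 6 treated arrays and Mcm5 below 0 on all 6. Right, the normalized log2 intensity of 4 Mcm6 probes on each array; probe ILMN_1217331 (blue) lies near 6 on WT arrays and near 9 and 10 on DKO arrays.

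Mcm6 had 4 kept probes, which gave like responses to IFNβ but unlike differences between genotypes. The rise was 0.47, 0.37, 0.40 and 0.21 in WT and 0.69, 0.66, 0.84 and 0.35 in DKO cells, with the last probe not called in either. Probe ILMN_1217331 read 6.17, 6.16 and 6.09 on untreated WT and 8.99, 9.31 and 9.09 on untreated DKO arrays, 7.92-fold apart (2.99, SE 0.10, adjusted p over probes = 8.3e-11). After IFNβ it read 6.50, 6.60 and 6.55 in WT and 9.97, 9.95 and 9.98 in DKO cells, 3.42 apart (SE 0.10). The WT and DKO arrays of this probe were far from overlapping, while the probe used for the gene gave 0.00 (SE 0.09) and 0.23 (SE 0.09) and the other 2 probes 0.13 and 0.19 untreated and 0.41 (adjusted p over probes = 0.011) and 0.33 treated. No level difference of Mcm6 between genotypes is therefore read from these arrays, and the reason for the one probe's gap was not tested.

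Mcm5 was lower in DKO cells by 0.50 untreated (1.41-fold, SE 0.09, adjusted p = 0.001) and by 0.26 after IFNβ (SE 0.09, adjusted p = 0.047), where any of 11 of the 12 arrays left out ended the call (adjusted p up to 0.15). Cdc45, the factor that activates the MCM ring, read 8.88, 8.78 and 8.97 on untreated and 8.51, 8.67 and 8.38 on treated WT arrays. On DKO arrays it read 8.54, 8.25 and 8.20 untreated and 8.08, 8.20 and 8.18 treated. Untreated WT arrays were again above all others. Cdc45 fell 1.28-fold with IFNβ in WT cells (-0.36, SE 0.11, adjusted p = 0.045), a call that any of 8 arrays left out ended (adjusted p up to 0.16), and the DKO change was -0.18 (SE 0.11, adjusted p = 0.40).

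In DKO cells Cdc45 was lower by 0.55 untreated (1.46-fold, SE 0.11, adjusted p = 0.0023) and by 0.37 after IFNβ (SE 0.11, adjusted p = 0.026, up to 0.11 without treated WT array 1 or 2 or treated DKO array 1 or 3). Within the low and high sets the untreated difference of Cdc45 was -0.29 and -0.74. A dimmer Cdc45 probe passed detection on 5 of 6 arrays in WT and on 0 of 6 in DKO cells. Cdc6, which loads the MCM ring at origins, read 8.62, 8.71 and 8.44 on untreated WT and 7.87, 8.18 and 8.24 on untreated DKO arrays, without overlap. It was 1.41-fold lower in DKO cells (-0.50, SE 0.11, adjusted p = 0.0037), with -0.80 within the low set (adjusted p = 0.0055) and -0.23 within the high set (adjusted p = 0.20). After IFNβ WT arrays read 8.29, 8.28 and 8.28 and DKO arrays 8.12, 8.09 and 8.12, a difference of -0.17 (SE 0.11, adjusted p = 0.26).

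Cdt1, the partner of Cdc6, and Gmnn, whose product geminin blocks Cdt1, differed in opposite directions between untreated genotypes. Cdt1 was 0.32 lower in DKO cells (SE 0.11, adjusted p = 0.037), and leaving out any of 5 untreated arrays ended the call (adjusted p up to 0.14). Within the low and high sets the Cdt1 difference was -0.19 and -0.50. Gmnn read 5.27, 4.75 and 5.34 on untreated WT and 5.35, 5.60 and 5.82 on untreated DKO arrays, with 1 WT array below detection. The lowest DKO array exceeded the highest WT array only in the last digit. The difference of 0.47 (SE 0.15, adjusted p = 0.029) was 0.17 without background correction (adjusted p = 0.066), 0.29 without untreated WT array 2 (adjusted p = 0.14) and also failed without untreated DKO array 2 (adjusted p = 0.075) or 3 (adjusted p = 0.13). After IFNβ Gmnn read 5.28, 5.33 and 5.46 in WT and 5.10, 5.25 and 5.22 in DKO cells (-0.17, SE 0.15, adjusted p = 0.45). Its IFNβ change was 0.24 (SE 0.15, adjusted p = 0.32) in WT and -0.40 (SE 0.15, adjusted p = 0.12, or 0.027 with the replicate block) in DKO cells.

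Of the 5 genes of DNA synthesis and nucleotide supply, Rrm2 responded to IFNβ and Rrm1 and Tyms differed by genotype. Rrm1 and Rrm2 encode the subunits of ribonucleotide reductase, which makes deoxyribonucleotides. Rrm2 read 8.42, 8.74 and 9.02 on untreated and 8.20, 8.12 and 8.40 on treated WT arrays, and 8.66, 8.65 and 9.01 and 8.49, 8.48 and 8.51 on the DKO arrays. Treated arrays lay below untreated ones in both genotypes. The WT fall was 1.40-fold (-0.49, SE 0.15, adjusted p = 0.035), lost without untreated WT array 2 or 3 or treated WT array 1 or 2 (adjusted p 0.093 to 0.13), and the DKO change was -0.28 (SE 0.15, adjusted p = 0.28). A second Rrm2 probe fell in both, by 0.58 (SE 0.11) and 0.40 (SE 0.11), and the remaining one gave -0.05 and -0.06.

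Rrm1 read 9.69, 9.73 and 9.75 on untreated and 9.73, 9.44 and 9.79 on treated WT arrays, and 10.28, 10.13 and 10.36 on untreated and 9.89, 9.96 and 10.17 on treated DKO arrays. DKO arrays were higher in both conditions without overlap. The difference was 0.53 untreated (1.45-fold, SE 0.12, adjusted p = 0.0029), called under all 25 alternatives, and 0.35 after IFNβ (SE 0.12, adjusted p = 0.032), lost without treated WT array 2 or treated DKO array 2 or 3 (adjusted p 0.061 to 0.14). A second Rrm1 probe gave 0.27 (SE 0.11) and -0.05 (SE 0.11), neither called. Tyms, thymidylate synthase, was 0.48 higher in untreated DKO cells (SE 0.11, adjusted p = 0.0052) and 0.19 after IFNβ (SE 0.11, adjusted p = 0.23), and 2 of its 4 other probes were also called untreated.

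Tk1, the thymidine salvage kinase, read 9.61, 9.77 and 9.34 on treated WT and 9.20, 9.11 and 9.30 on treated DKO arrays. These did not overlap, and Tk1 was 0.37 lower in DKO cells after IFNβ (1.29-fold, SE 0.12, adjusted p = 0.03, up to 0.13 without treated array 1 or 2 of either genotype). The untreated difference was -0.32 (SE 0.12, adjusted p = 0.055). Pcna, the sliding clamp of DNA polymerase, passed in no comparison, with differences from -0.12 to 0.23.

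No G2/M cyclin or kinase passed for IFNβ in either genotype on its brightest probe. Cdc25c, the phosphatase that activates Cdk1, read 7.77, 8.12 and 7.71 on untreated and 7.46, 7.55 and 7.58 on treated WT arrays, and 7.71, 7.68 and 7.91 and 7.43, 7.51 and 7.30 on DKO arrays. Treated arrays lay below untreated arrays in both, by -0.33 (SE 0.12, adjusted p = 0.072) and -0.35 (SE 0.12, adjusted p = 0.082), which passed with the replicate block (adjusted p = 0.038 and 0.04). A second Cdc25c probe, nearly as bright, read 7.86, 8.05 and 7.65 on untreated and 7.59, 7.53 and 7.40 on treated WT arrays. On DKO arrays it read 7.74, 7.60 and 7.65 untreated and 7.21, 7.16 and 7.22 treated, again without overlap. Aurka, the centrosome kinase, read 10.11, 10.25 and 10.14 untreated and 10.12, 10.38 and 10.00 treated in WT cells, and 9.87, 9.71 and 9.74 and 9.93, 9.59 and 9.61 in DKO cells. Every DKO array lay below every WT array. It was lower by 0.39 untreated (SE 0.12, adjusted p = 0.024) and by 0.45 after IFNβ (1.37-fold, SE 0.12, adjusted p = 0.012). The untreated call failed without untreated WT array 2 or untreated DKO array 2 or 3, and the treated one without treated WT array 2 or treated DKO array 2 or 3 (adjusted p 0.051 to 0.082).

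Ccna2, cyclin A2, was lower in DKO cells by 0.33 untreated (SE 0.10, adjusted p = 0.026) and by 0.29 after IFNβ (SE 0.10, adjusted p = 0.046). The first failed without untreated WT array 3 (adjusted p = 0.093) or untreated DKO array 2 (adjusted p = 0.096), and the second without any of 10 of the 12 arrays (adjusted p up to 0.17). Within the low and high sets the Ccna2 difference after IFNβ was -0.09 and -0.41. Cdk1, the mitotic kinase, and Plk1, the Polo kinase, passed in no comparison, with differences from -0.06 to 0.17 and from -0.02 to 0.11. For Cdk1 the 95% CI of the untreated genotype difference was -0.05 to 0.39.

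Among the 8 tested chromosome, spindle and checkpoint genes, 2 fell with IFNβ in WT cells and 0 of 8 passed in DKO cells (smallest adjusted p = 0.07). The change was negative for 6 of 8 in WT and 8 of 8 in DKO cells, against 62.9% and 62.8% of all genes. Cenpa, the histone that marks centromeres, read 12.70, 12.50 and 12.89 on untreated and 12.33, 12.21 and 12.13 on treated WT arrays, and 12.37, 12.26 and 12.28 and 12.06, 12.01 and 12.00 on DKO arrays. Treated arrays lay below untreated arrays in both genotypes. In WT cells it fell 1.39-fold (-0.47, SE 0.11, adjusted p = 0.0077), with any array left out, and in DKO cells the change was -0.28 (SE 0.11, adjusted p = 0.13). Within the low and high sets the WT change was -0.33 (adjusted p = 0.16) and -0.75 (adjusted p = 0.014).

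Birc5, survivin, a subunit of the chromosomal passenger complex, read 10.80, 10.93 and 10.71 on untreated and 10.58, 10.48 and 10.41 on treated WT arrays. On DKO arrays it read 10.48, 10.56 and 10.64 untreated and 10.23, 10.21 and 10.34 treated. Treated arrays lay below untreated ones in both genotypes, and the 2 changes differed by 0.03 (SE 0.14). Birc5 fell by 0.33 in WT cells (1.25-fold, SE 0.10, adjusted p = 0.034) and was -0.30 in DKO cells (SE 0.10, adjusted p = 0.07, and 0.026 with the replicate block). The WT call failed without untreated WT array 1 or 2 or treated WT array 2 or 3 (adjusted p 0.073 to 0.14). Aurkb, the kinase of the same complex, did not pass for IFNβ (-0.07, SE 0.09, and -0.23, SE 0.09, adjusted p = 0.64 and 0.12).

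Between genotypes Aurkb read 8.98, 8.91 and 8.87 untreated and 8.78, 8.91 and 8.84 treated in WT cells, and 8.64, 8.51 and 8.57 and 8.28, 8.35 and 8.39 in DKO cells. All 6 DKO arrays lay below all 6 WT arrays. It was lower by 0.34 untreated (SE 0.09, adjusted p = 0.0092) and by 0.50 after IFNβ (1.42-fold, SE 0.09, adjusted p = 0.00068), the second called under all 25 alternatives. Cenpa was lower by 0.39 in untreated DKO cells (SE 0.11, adjusted p = 0.012), and by 0.30 without untreated WT array 3 (adjusted p = 0.056). A second Cenpa probe gave 0.08 (SE 0.15). Birc5 was not called between genotypes, but each of its probes had a lower mean in DKO cells. Untreated WT and DKO means were 10.81 and 10.56, 10.30 and 10.04, and 9.82 and 9.43. After IFNβ they were 10.49 and 10.26, 10.10 and 9.72, and 9.60 and 9.25. With the authors' log2 table Birc5 was called lower in both conditions (-0.24, adjusted p = 0.02, and -0.22, adjusted p = 0.036).

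Bub1b, the spindle checkpoint kinase BubR1, had the largest genotype difference of the members after IFNβ, and the largest but 1 before it. Its probe read 10.33, 10.17 and 10.01 untreated and 9.92, 10.05 and 9.62 treated in WT cells, and 9.60, 9.33 and 9.41 and 8.98, 9.06 and 9.33 in DKO cells. All DKO arrays lay below all WT arrays, by 0.72 untreated (1.65-fold, SE 0.14, adjusted p = 0.0012) and 0.74 after IFNβ (1.67-fold, SE 0.14, adjusted p = 0.001). A second Bub1b probe read 8.48, 8.38 and 8.26 in WT and 8.98, 8.50 and 8.43 in DKO cells untreated, overlapping, with differences of 0.26 (SE 0.13) and 0.24 (SE 0.13), neither called. With the mean of both probes the difference was -0.23 untreated (adjusted p = 0.17) and -0.25 after IFNβ (adjusted p = 0.13), and within the high intensity set the used probe gave -0.42 after IFNβ (adjusted p = 0.079). The call on Bub1b thus rests on 1 of its 2 probes. Both probes gave IFNβ changes of -0.30 to -0.32 in both genotypes, none called.

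Ttk, Kif11, Tpx2 and Top2a passed in no comparison. Kif11, the kinesin that separates spindle poles, came nearest, at -0.27 (SE 0.10, adjusted p = 0.054) between genotypes after IFNβ. Top2a, the topoisomerase of chromosome condensation, differed by -0.42 and -0.43 (SE 0.19 each, adjusted p = 0.10 and 0.096), and a second probe gave 0.25 and 0.06 (SE 0.15 each).

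Of the 2 genes of mitotic exit, Cdc20, the activator of the anaphase-promoting complex, was lower after IFNβ in WT cells and lower in DKO cells. It read 11.48, 11.56 and 11.54 on untreated and 11.20, 11.11 and 11.35 on treated WT arrays, and 11.09, 11.19 and 11.21 on untreated and 10.80, 10.95 and 10.95 on treated DKO arrays. The untreated WT arrays stood above all others and the treated DKO arrays below all others. IFNβ lowered it 1.24-fold in WT cells (-0.31, SE 0.10, adjusted p = 0.039), a call lost when any of 9 arrays was left out (adjusted p up to 0.13), and the DKO change was -0.26 (SE 0.10, adjusted p = 0.11). The genotype differences were -0.37 (SE 0.10, adjusted p = 0.01) and -0.32 (SE 0.10, adjusted p = 0.024, failing without treated WT array 3 or treated DKO array 1 at 0.096 and 0.082). All 4 Cdc20 probes were negative in these 4 comparisons, from -0.59 to -0.23. Ube2c, the E2 enzyme of the same complex, passed in none, with genotype differences of -0.34 and -0.31 (SE 0.14 each, adjusted p = 0.078 and 0.11).

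Over the members, 18 had several kept probes. Of their calls in the probe-level fit, 2 of 4 for IFNβ in WT cells, 1 of 1 in DKO cells, 3 of 7 between untreated and 1 of 6 between treated genotypes were also called the same way by another probe, and 0 were called the opposite way. Further members had a called probe beside an uncalled brightest one. These were 1 for IFNβ in WT cells, 4 in DKO cells, 2 between untreated and 3 between treated genotypes.

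Other genes of the same pathways were read from lists of families, chosen like the members with earlier results of these data known. Of 42 tested replication genes, 1 rose and 8 fell with IFNβ in WT cells and 2 fell in DKO cells, with medians of -0.09 and -0.10 against -0.08 and -0.07 for all genes. The called shares were 21.4% and 4.76%, against 18.7% and 11.4% of all genes. Pold1, the catalytic subunit of DNA polymerase delta, fell by 0.63 in WT cells (SE 0.12, adjusted p = 0.0021), Dck, a nucleoside salvage kinase, by 0.55 (SE 0.16, adjusted p = 0.025) and Chaf1b, of chromatin assembly, by 0.45 (SE 0.10, adjusted p = 0.0077). In DKO cells the 2 were Dut, lower by 0.47 (SE 0.13), and Orc3, at least 1.11-fold lower, as no treated DKO array detected it. Between genotypes 3 were higher and 13 lower in DKO cells untreated, 38.1% against 33.9% of all genes, and 3 and 10 after IFNβ, 31.0% against 31.8%. The clamp loader subunits Rfc5 (-0.74 and -0.72, SE 0.11 each), Rfc2 (-0.75 after IFNβ, SE 0.13) and Rfc3 (-0.68 after IFNβ, SE 0.15) were lower, and Pold3 was higher by 0.63 untreated (SE 0.12).

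Of 45 tested mitosis genes, 2 rose and 6 fell with IFNβ in WT cells, and 1 rose and 3 fell in DKO cells, with medians of -0.17 and -0.15. The called shares, 17.8% and 8.89%, lay below the 18.7% and 11.4% of all genes. Pttg1, securin, which guards sister chromatids and is cleaved at anaphase, read 5.29, 5.05 and 5.01 on untreated and 5.76, 5.66 and 5.68 on treated WT arrays, and 6.13, 6.29 and 6.63 and 7.05, 7.09 and 7.03 on DKO arrays. It rose by 0.58 in WT (SE 0.13, adjusted p = 0.0051) and 0.71 in DKO cells (SE 0.13, adjusted p = 0.0018), with no overlap of any 2 groups. Ect2, of cytokinesis, fell by 0.67 (SE 0.14) and Cdca8, borealin, by 0.46 (SE 0.10) in WT cells, and Ncapd2 of condensin by 0.48 (SE 0.11) and Spc25 of the kinetochore by 0.43 (SE 0.10) in DKO cells. Between genotypes 5 were higher and 9 lower untreated, 31.1% against 33.9% of all genes, and 4 and 6 after IFNβ, 22.2% against 31.8%. Dlgap5, a spindle protein, was 3.65-fold higher in DKO cells untreated (1.87, SE 0.15) and 1.90 after IFNβ, Pttg1 was 1.23 and 1.36 higher (SE 0.13 each), and Nuf2 of the kinetochore was 1.08 lower untreated (SE 0.13) and Kif23 0.79 lower after IFNβ (SE 0.18). In all, 3 mitosis genes passed 2-fold between untreated genotypes.

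Among 16 tested D cyclin, RB and E2F genes, 2 rose with IFNβ in both genotypes. The called shares were 31.2% in WT and 12.5% in DKO cells, against 18.7% and 11.4% of all genes, and 25% and 12.5% between untreated and treated genotypes, against 33.9% and 31.8%. Ccnd2 read 8.16, 8.43 and 8.32 on untreated and 9.15, 9.27 and 8.96 on treated WT arrays, and 8.60, 8.56 and 8.51 and 9.56, 9.32 and 9.36 on DKO arrays. Treated arrays lay above all untreated ones, by 0.83 in WT (1.77-fold, SE 0.11, adjusted p = 0.00013) and 0.86 in DKO cells (SE 0.11, adjusted p = 0.00012). Ccnd3, the other D cyclin that rose, gained 0.89 (SE 0.14) and 0.66 (SE 0.14). In WT cells 3 of the list fell, Tfdp2, the E2F partner, by 0.59 (SE 0.15). Ccnd1 was higher in DKO cells by 1.06 untreated and 1.00 after IFNβ (SE 0.15 each), E2f2 at least 1.74-fold lower untreated, as no DKO array of that group detected it, and Rbl1 lower by 0.50 and 0.45 (SE 0.15 each).

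Of the 7 tested inhibitors of cyclin-dependent kinases, 4 were higher and 1 lower in DKO cells untreated, 71.4% against 33.9% of all genes, and 3 and 1 after IFNβ, 57.1% against 31.8%. Cdkn1c, p57, read 8.07, 8.28 and 8.18 on untreated and 7.68, 7.67 and 7.57 on treated WT arrays, against 11.19, 10.87 and 10.92 and 10.77, 10.42 and 10.38 on DKO arrays. It was 7.06-fold higher in DKO cells untreated (2.82, SE 0.13, adjusted p = 1.1e-09) and 2.88 after IFNβ (SE 0.13), and IFNβ lowered it by 0.53 in WT (SE 0.13, adjusted p = 0.0085) and 0.47 in DKO cells (SE 0.13, adjusted p = 0.026). Cdkn2b, an inhibitor of Cdk4, was 1.43 and 1.57 higher (SE 0.12 each). Cdkn1a, p21, was 0.69 (SE 0.25, adjusted p = 0.048) and 0.75 higher (SE 0.25, adjusted p = 0.034), with 1 untreated DKO array inside the WT range. No gene of these lists passed the interaction test.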

How the data were processed

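RNA of 12 mouse embryonic fibroblast samples (4 groups of 3) was read on Illumina bead arrays. The deposited table held a raw intensity and a detection p-value for each of 45281 probes on each array, and the authors' normalized log2 values were deposited as well. For the software behind both, the sources used here give no name. The intensities were background-corrected with the detection p-values (normexp, offset 16), quantile-normalized and put on the log2 scale in limma 3.58.1 (R 4.3.3). Kept probes had a detection p under 0.01 on 3 arrays or more, and the probe with the highest mean stood for a gene. One limma model with the 4 groups gave all 5 comparisons, with p-values adjusted by Benjamini-Hochberg over 8898 genes, 8 residual and 5.56 prior degrees of freedom, and a threshold of 0.05. The steps were tested on simulated data in which arrays varied independently. The simulation held no pairing of arrays and no intensity sets, so it cannot show how these affect the calls.

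The members and lists were chosen with earlier results of these data known. Values on every array are given for members called in a comparison, at most 8 with the largest change in each (or the 2 with the smallest p where fewer were called), and up to 3 called genes are named from each wider list. A fold of "at least" sets the detected group's mean against the higher of each array's lowest detected signal and the probe's own value.

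Arrays of the same number within a genotype deviated together from their group means (6 pairs, r = 0.34 to 0.64), so the numbers were taken to pair untreated and treated arrays. Each such pair also lay in 1 intensity set, and arrays that shared a set but neither number nor genotype correlated at 0.31 to 0.43 (8 pairs), so number and set are only partly separable. Arrays of 1 genotype and set with different numbers gave 0.06 to 0.25 (4 pairs), and those of 1 number in different genotypes and sets -0.38 to -0.28. Genotypes cannot be blocked in this way. Alternatives were no background correction, the authors' log2 table, an offset of 50, cyclic loess, median scaling, 2 detection filters, the mean of a gene's probes, only the groups compared, replicate and set blocks, each set alone, and each array left out.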

Additional observations from a re-analysis of the deposited data

How the results depend on the processing

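The 37 called results on single members gave 933 values under the alternatives, and 0 reversed. All counts are of 36 members, without the share of all genes called beside them, and the cause of a moved count was not tested. For IFNβ in WT cells (8) the count was 3 with cyclic loess, 3 with median scaling, 3 with only the groups compared, and 2 within each intensity set. For IFNβ in DKO cells (1) it was 4 without background correction, with the authors' log2 table and with the mean of a gene's probes, 3 with no filter on dim probes, 2 with an offset of 50, 5 with the set as a block, 0 in the low set and 2 in the high set. Between untreated genotypes (17) it was 5 within the low set, and after IFNβ (11) it was 6 with only the groups compared, 18 with the set as a block and 3 within each set. Leaving out 1 array gave 3 to 9, 1 to 2, 13 to 18 and 6 to 13 in that order, and 0 to 0 for the interaction, which was 0 in each alternative run.

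With the replicate block within a genotype, the count was 12 in WT and 4 in DKO cells. A replicate block across all 4 groups gave 8 and 1, and 21 and 16 between genotypes. Within a set, groups with 1 array were assumed to vary like the others. Low signal limits Gmnn and Ttk, which lay near the background.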
